A study of Mus musculus with 8 samples.

Results

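The surface epithelium genes described here are 10 mouse genes: Epcam, Cdh1, Trp63, Cldn3, Cldn6, Cldn7, Grhl2, Esrp1, Krt8 and Krt14. Each was read from its brightest probe set, by mean over 8 Affymetrix arrays, among the probe sets annotated to that gene alone. All 10 had such a probe set, of 18193 genes on the array that did, and all 10 passed the filter on low values with which 13545 genes were tested. The rule names the genes without using their values, which serve only to pick the probe set of each gene. It was drawn up with earlier results of these data known. The arrays measured RNA of mouse embryos, at E11.5 by the series title and the descriptions of the p75-sorted arrays; the descriptions of the other arrays give no stage. There was 1 control and 1 FAK mutant array from each of 4 origins. One origin is cranial neural crest cells sorted for p75 from head and thorax, each array a pool of 3 embryos. The other origins carry the names LM, OFT and UM, which the labels do not spell out, and the sources used here do not say how many embryos stood behind each of those arrays. Control embryos are described only as controls or, in the series title, as wild type. The FAK allele, and any Cre driver that would limit the loss of FAK to some cells, are not named there either. FAK is the kinase that signals from integrin contacts with the matrix, and its own transcript was not analysed here.

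Surface epithelium covers the embryo as ectoderm and lines the pharynx as endoderm. Its cells are held together by E-cadherin at adherens junctions and by claudins at tight junctions, and their cytoskeleton is built of keratins. Simple epithelia carry Krt8 and Krt18, whereas the basal layer of stratifying epidermis carries Krt5 and Krt14 under the control of p63. Neural crest cells leave the ectoderm by an epithelial to mesenchymal transition, in which Snail and Zeb repressors act on E-box elements of epithelial genes such as Cdh1.

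Promoter sequences, taken from 250 bases before to 50 after a transcript start in RefSeq's annotation of GRCm38.p6, were found for 6 of the 10 genes, with 7 windows in all. Cdh1, Trp63, Grhl2 and Esrp1 had no entry in that table. Those of Epcam, Cldn6 and Krt8 are shown as 1 example each of an adhesion gene, a claudin and a keratin whose level was lowest in p75-sorted cells and whose window holds the E-box searched. Cldn7, a second such claudin, has that E-box at -97 and -57 in 1 of its 2 windows and is not printed. The letters in capitals mark that E-box, CACCTG on the strand shown or CAGGTG where it lies on the other strand. The Epcam window is chr17:87635729-87636028 on the + strand, the Cldn6 window chr17:23679115-23679414 on the + strand, and the Krt8 window chr15:102004293-102004592 on the - strand.
Epcam: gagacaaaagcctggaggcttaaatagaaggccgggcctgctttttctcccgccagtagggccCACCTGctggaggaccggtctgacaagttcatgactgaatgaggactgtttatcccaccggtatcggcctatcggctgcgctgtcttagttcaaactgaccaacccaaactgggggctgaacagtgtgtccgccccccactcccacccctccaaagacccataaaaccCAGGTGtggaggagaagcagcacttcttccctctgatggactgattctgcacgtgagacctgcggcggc
Cldn6: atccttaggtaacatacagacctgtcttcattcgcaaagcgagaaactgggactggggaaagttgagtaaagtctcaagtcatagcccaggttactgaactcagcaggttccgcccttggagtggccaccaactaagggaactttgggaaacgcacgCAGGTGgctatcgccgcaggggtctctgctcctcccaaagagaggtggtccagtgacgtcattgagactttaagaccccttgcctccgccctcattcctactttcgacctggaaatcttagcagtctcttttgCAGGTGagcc
Krt8: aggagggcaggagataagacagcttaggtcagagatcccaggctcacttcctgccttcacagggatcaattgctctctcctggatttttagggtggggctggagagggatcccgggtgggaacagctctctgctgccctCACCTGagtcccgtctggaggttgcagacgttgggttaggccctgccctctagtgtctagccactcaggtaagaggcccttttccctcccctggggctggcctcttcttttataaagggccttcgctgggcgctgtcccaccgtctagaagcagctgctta
The E-box CACCTG, searched on both strands, was found in 5 of the 7 windows, belonging to Epcam, Cldn3, Cldn6, Cldn7 and Krt8, and in 20.2% of all 32851 promoter windows in the table. Counted from the transcript start at 0, it began at -187 and -19 in Epcam, at -93 and 40 in Cldn6 and at -111 in Krt8. The Grainyhead core AACCGGTT, the element that Grhl2 binds, was found in 0 of the 7 windows and in 0.146% of all windows, and its looser form AACNNGTT in 0 of 7 and in 4.2%. Of the 7 windows, that of Krt14 (chr11:100205981-100206280, - strand) lies inside the gene's annotated span, 100203162 to 100207510, away from its 5' end. The Cldn7 window with the E-box, chr11:69965171-69965470, also lies inside the span of its gene, 69964779 to 69967886. A match describes these letters only.

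The values are deposited intensities on a linear scale, and tests were run with limma on log2(intensity + 32), where an intensity of 0 becomes 5 and differences of dim genes are understated. Intensities of different probe sets are not compared with each other. Since each origin had 1 array per genotype, its control and mutant arrays served as its replicates in comparisons of origins, and values after ± are limma's moderated SE. The number of arrays limits the precision, and p-values measure only the spread between these arrays. The p75-sorted arrays stood apart in the Gapdh control probe sets, whose 3' signal divided by the 5' signal was 2.82 in the control and 4.91 in the mutant, where the other arrays had at most 0.986. The same ratio for Actb did not set them apart, at 1.57 and 1.65 against 1.42 to 1.94 on the other arrays. The 18S control signal of the p75-sorted arrays was 1915 and 4774, and at most 628.8 on the other arrays. Only the p75-sorted arrays are described as sorted and pooled, so sorting, pooling and origin cannot be told apart. Any difference in amplification, which those descriptions do not state, could not be told apart from them either. All 5 crest and glia genes measured, of 7 listed, were called higher in p75-sorted cells than in LM and UM, as were 29.4% of all genes. The sum of their intensities was 7035 and 8903 on the p75-sorted arrays against 385.1 to 1374 elsewhere. Ngfr, 1 of the 5, encodes p75 itself, so its rise follows from the sort. It gave 1043 and 1422 of the sums on the p75-sorted arrays.

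**Figure D1:**
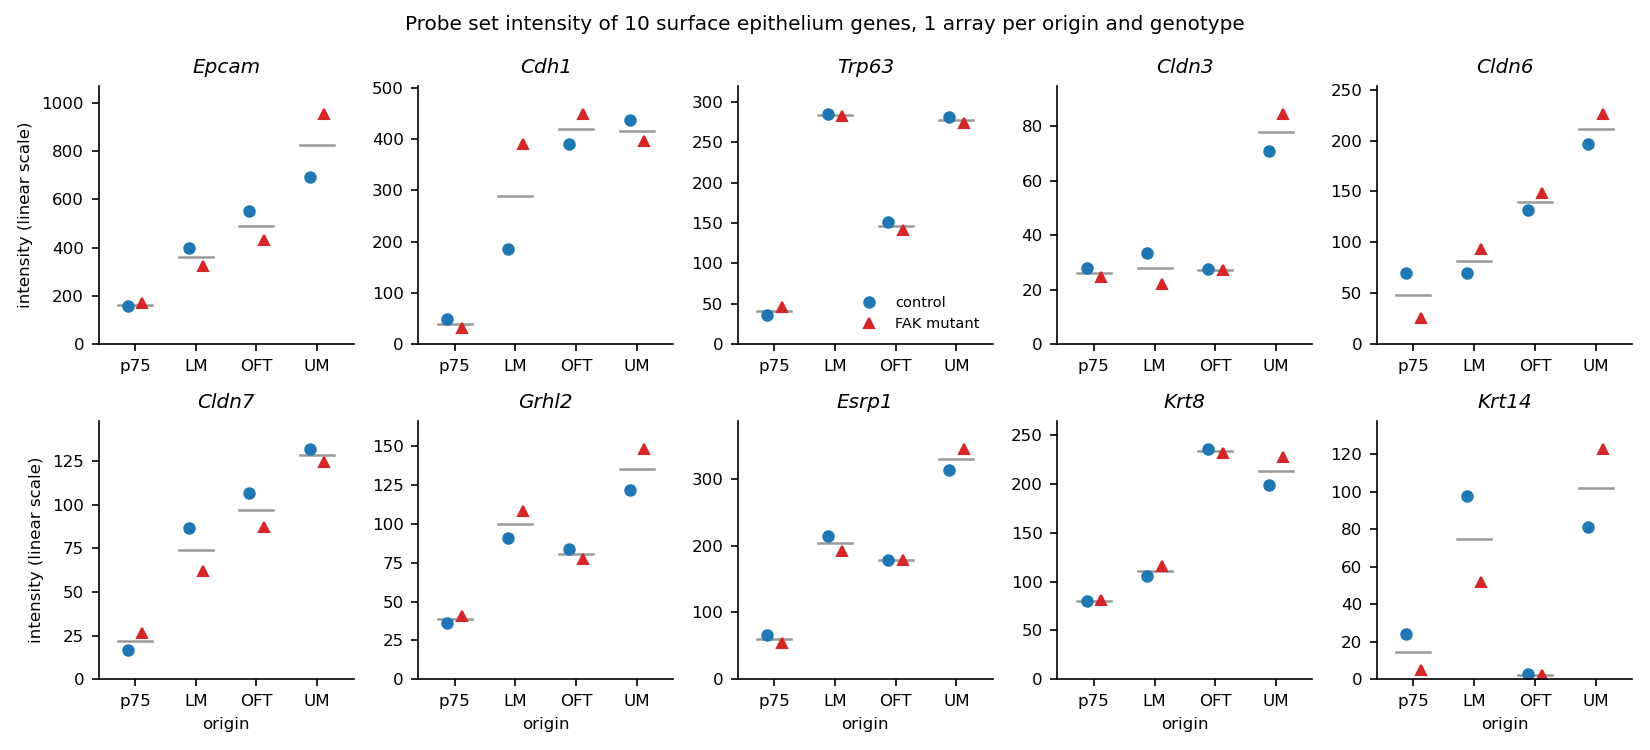
Intensity (linear scale, each axis starting at 0) of the 10 genes on 8 arrays by origin; circles are controls, triangles FAK mutants and grey lines the mean of the 2 arrays of an origin. In p75-sorted cells 9 of the 10 genes have their lowest mean, and Krt14 has it in OFT. For Cldn3 that mean, 26.3, is barely below the 27.5 of OFT and the 27.9 of LM. UM holds the highest mean log2 value for 7 genes. The shares of all genes lowest in p75-sorted cells or highest in UM were not computed.

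Intensities are given as control and mutant. Epcam, a homophilic adhesion protein of epithelial cells, had intensities of 693 and 955 in UM, 550 and 431 in OFT, 401 and 323 in LM and 157 and 169 in p75-sorted cells. Its arrays rose from p75-sorted cells through LM and OFT to UM with no overlap between neighbouring origins. Cdh1, which encodes E-cadherin, had intensities of 437 and 396 in UM, 391 and 450 in OFT, 187 and 392 in LM and 49.3 and 30.8 in p75-sorted cells. The OFT and UM arrays of Cdh1 overlapped, and its LM mutant lay far above its LM control.

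Claudins are the membrane strands of tight junctions. Cldn6, a claudin of embryonic epithelia, had intensities of 196 and 226 in UM, 132 and 148 in OFT, 70.3 and 93.1 in LM and 69.6 and 26.2 in p75-sorted cells. Cldn7 had 132 and 124 in UM, 106 and 87.3 in OFT, 86.5 and 62.1 in LM and 16.8 and 26.6 in p75-sorted cells. Both followed the order of Epcam, with UM above OFT, OFT above LM and LM above p75-sorted cells. Cldn3 had 71.1 and 84.7 in UM, 27.6 and 27.3 in OFT, 33.6 and 22.2 in LM and 28 and 24.7 in p75-sorted cells. Cldn3 thus stood out in UM alone, and its arrays of LM, OFT and p75-sorted cells overlapped near the intensity of 19.4 used as the filter.

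The regulators of epithelial identity came next. Trp63 encodes p63, the transcription factor of basal and stratifying epithelium. Its intensities were 281 and 274 in UM, 151 and 142 in OFT, 285 and 282 in LM and 36.6 and 46.2 in p75-sorted cells. LM and UM were nearly level, OFT lay between them and the p75-sorted cells, and the 2 arrays of each origin were close. Grhl2, a Grainyhead transcription factor of epithelial junction genes, had intensities of 122 and 149 in UM, 83.8 and 77.2 in OFT, 91.0 and 109 in LM and 36.0 and 41.0 in p75-sorted cells. Esrp1, an RNA-binding protein that directs epithelial splicing, had 313 and 346 in UM, 179 and 179 in OFT, 215 and 192 in LM and 66.7 and 54.8 in p75-sorted cells. Grhl2 and Esrp1 shared an order, UM above LM, LM above OFT and OFT above p75-sorted cells, with no overlap between neighbouring origins.

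The keratins divided the origins differently. Krt8, a keratin of simple epithelia that pairs with Krt18, had intensities of 199 and 228 in UM, 236 and 232 in OFT, 106 and 116 in LM and 79.7 and 80.9 in p75-sorted cells. OFT lay highest, just above UM. Krt14, the keratin of basal epidermis, had 81.3 and 123 in UM, 2.51 and 2.09 in OFT, 97.7 and 51.7 in LM and 24.2 and 4.87 in p75-sorted cells. Krt14 was thus brightest in LM and UM, whose arrays overlapped, and dimmest on both OFT arrays.

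The first comparison set p75-sorted crest cells against LM and UM averaged. All 10 genes were lower in p75-sorted cells, where 18.7% of all genes tested were called lower and 29.4% higher, by limma with Benjamini-Hochberg adjustment at a threshold of 0.05. The median log2 difference of the 10 genes was -1.33, against 0.09 for all genes. Cdh1 differed by -2.37 ± 0.23 in log2 (n = 2 arrays per origin, adjusted p = 9.34e-06) and Trp63 by -2.09 ± 0.15 (adjusted p = 1.19e-06). Esrp1 was at -1.65 ± 0.15, Epcam at -1.56 ± 0.18 and Cldn7 at -1.28 ± 0.17. Krt14, Cldn6, Grhl2 and Krt8 were at -1.37, -1.11, -1.07 and -0.74. Cldn3 changed least, at -0.47 ± 0.16 with an adjusted p of 0.0261. These are sums over a mixture of cells, in which fewer epithelial cells and less RNA per epithelial cell cannot be told apart.

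For 9 of the 10 genes both p75-sorted arrays lay below all 4 LM and UM arrays, a pattern that 24% of all genes tested showed, and Cldn3 was the exception. Within controls alone the differences ran from -2.20 for Trp63 to -0.46 for Cldn3, and within mutants alone from -2.76 for Cdh1 to -0.49 for Cldn3. The Cldn3 call was lost in 7 of 15 alternative settings, among them leaving out the p75-sorted control (adjusted p = 0.11), the p75-sorted mutant (0.16), the LM control (0.0813) or the UM mutant (0.0788), where the adjusted p ran from 0.0174 to 0.16 over all 15. Cldn6 was at -0.61 with adjusted p = 0.0542 when the p75-sorted mutant was left out. Averaging the probe sets of each gene put Epcam at -0.92, Krt14 at -0.85 and Grhl2 at -0.37, all still called. At a pseudocount of 100 the differences of Cldn3, Cldn6, Cldn7, Grhl2 and Krt14 shrank to between -0.71 and -0.26, and at a pseudocount of 1 those of Cldn3, Cldn7 and Krt14 were -0.79, -2.15 and -2.81.

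Other epithelial genes went the same way less uniformly. Of 44 further genes in 4 lists, 38 were tested, and 19 of these were lower in p75-sorted cells and 0 higher, with a median of -0.55. The shares to read these and the next counts against are the 18.7% of all genes lower and 29.4% higher. The junction list had 7 of 17 lower, led by Dsp, the desmosomal linker desmoplakin, at -2.32 ± 0.24, Perp, a desmosomal membrane protein and p63 target, at -1.94 ± 0.15, and F11r, the junctional adhesion molecule A, at -1.81 ± 0.17. Of 5 further keratins tested 4 were lower, Krt18 by 1.32 and Krt15, a basal keratin, by 1.11 among them. Of 8 transcription and splicing factors 3 were lower, namely Esrp2, a second epithelial splicing factor, at -0.93, Grhl3, another Grainyhead factor, at -0.91 and Dlx3, a homeobox factor of epidermis, at -0.86. Of 8 surface, protease and traffic genes 5 were lower, led by Ap1m2, the epithelial clathrin adaptor subunit, at -1.22 and Spint2, a serine protease inhibitor, at -1.04.

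Of 13 mesenchyme genes, 5 were called higher and 7 lower, with a median of -0.48, beside the same shares of all genes. Zeb2, a repressor that binds E-boxes, was 1.97 ± 0.16 higher in p75-sorted cells (adjusted p = 3.08e-06), with intensities of 718 and 845 against 128 and 124 in LM and 265 and 215 in UM. Zeb1, the related repressor, was at 0.75, while Snai1 and Snai2, the Snail repressors, were lower, at -0.63 (adjusted p = 0.0213) and -0.81 (adjusted p = 0.00399). Vim, the mesenchymal intermediate filament vimentin, was 0.98 higher and Fn1, fibronectin, 1.14 higher, while Prrx1, a homeobox factor of facial mesenchyme, fell by 1.21. Of 4 endothelial genes 3 were lower. Summed over these 4, LM and UM arrays reached 443.2 to 491.9 where p75-sorted ones had 170.1 and 192.4. All 5 neuron genes were higher, with Tubb3, a neuronal tubulin, at 2.40, and summed to 2859 and 1927 against 329.8 to 1226. Cardiac muscle genes were higher for 5 of 6, with Actc1 at 2.97 and Tnnt2 at 1.58. Their summed intensity was 1810 and 2581 on the p75-sorted arrays against 45.9 to 963.7 in LM and UM. Pharyngeal endoderm genes were lower for 3 of 6, with Shh at -1.01, and higher for 1, Sox2 at 0.46. Mesothelium genes were higher for 2 of 6, Tbx18 at 1.24 and Wt1 at 0.54, and lower for 0. The part of these cell types, and of the Gapdh ratio, in the epithelial differences was not tested.

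p75-sorted cells against OFT gave 8 of the 10 genes lower and 0 higher, where 15.4% of all genes were called lower and 19.2% higher. This comparison uses the same p75-sorted arrays as the one before. Cdh1 differed most, falling by 2.66 ± 0.26 (adjusted p = 2.38e-05), with Epcam at -1.41 ± 0.21, Trp63 at -1.28 ± 0.17 and Cldn7 at -1.27 ± 0.19. Krt8, Esrp1, Cldn6 and Grhl2 differed by -1.24, -1.19, -1.16 and -0.67. Cldn3 and Krt14 did not pass: Cldn3 differed by -0.03 (95% interval -0.42 to 0.37) and Krt14 by 0.41 (-0.13 to 0.95), both dim in each of these origins. Cldn6 lost its call without the p75-sorted mutant, at -0.66 with adjusted p = 0.072, without the OFT mutant, at 0.0633, and at a pseudocount of 1, at 0.0554. Grhl2 lost it without the p75-sorted control (adjusted p = 0.06), the p75-sorted mutant (0.0783) or the OFT control (0.131), and with the mean of its probe sets, where it was at -0.16. That mean also moved Epcam to -0.66 and Trp63 to -0.60, both still called. Among the 38 further epithelial genes 17 were lower and 1 higher, the latter Tfap2c, an AP-2 factor of ectoderm, at 1.47 ± 0.29. Dsp was at -3.09, Cdh3, which encodes P-cadherin, at -2.36, Krt18 at -1.83 and Krt19 at -1.63. Markers of other cell types moved in this comparison as well. Lower in p75-sorted cells were 4 of 6 endoderm genes, with Shh at -2.75 and Foxa1 at -2.33, 5 of 6 mesothelium genes, 4 of 4 endothelial genes and 6 of 6 cardiac muscle genes. Higher were 1 endoderm gene, 3 of 5 neuron genes and 5 of 5 crest and glia genes, the last with the sort marker's gene Ngfr among them. Isl1, 1 of the neuron genes, was lower, at -1.32. Of 13 mesenchyme genes 2 were higher, Zeb2 at 1.59 and Twist1 at 0.65, and 2 lower, Cdh11 at -0.84 and Pdgfra at -0.69. The part of all these cell types in the epithelial differences was not tested.

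**Figure D2:**
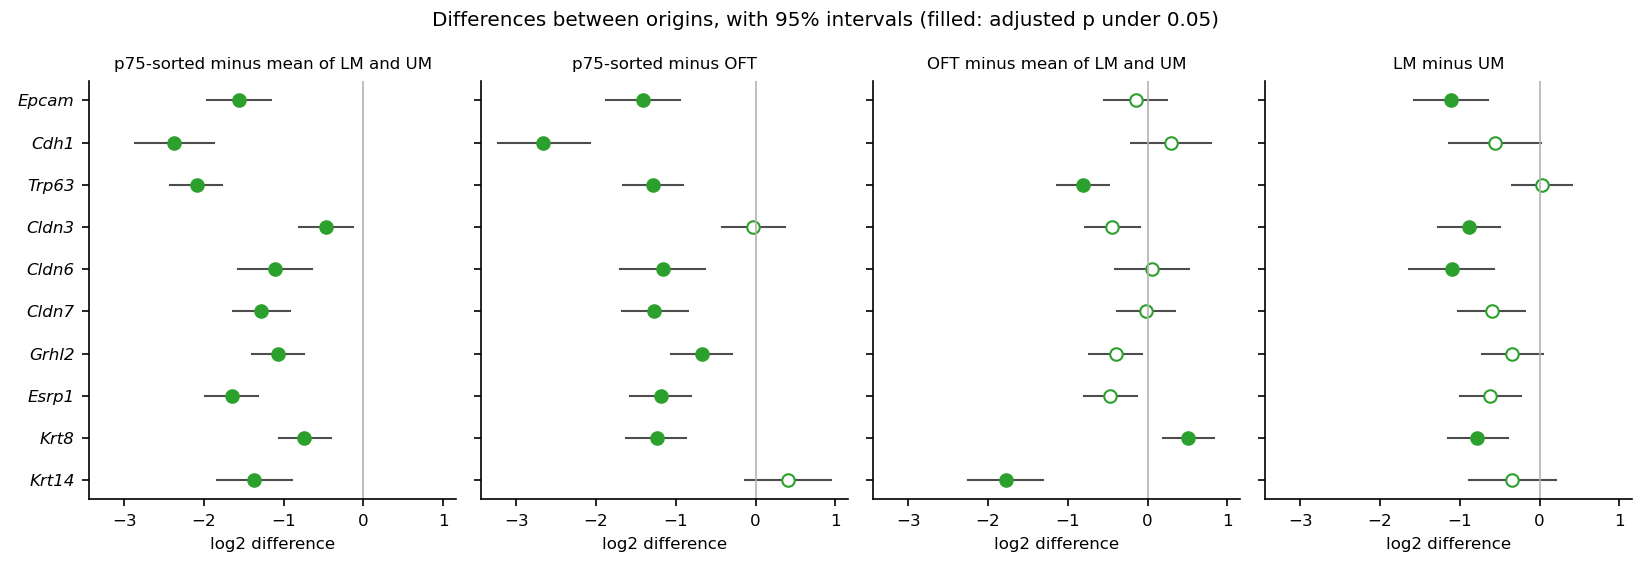
Log2 differences of the 10 genes in 4 comparisons of origins, with 95% intervals from limma; filled points passed at an adjusted p under 0.05. All 10 pass in p75-sorted cells against LM and UM, 8 against OFT, 3 in OFT against LM and UM (Krt14 and Trp63 lower, Krt8 higher), and 4 in LM against UM.

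OFT was next set against LM and UM averaged. Krt14 fell by 1.78 ± 0.22 (adjusted p = 0.000123) and Trp63 by 0.81 ± 0.15 (adjusted p = 0.00304), while Krt8 rose by 0.51 ± 0.15 (adjusted p = 0.0372). These 2 lower and 1 higher of 10 genes stand beside 3.88% of all genes called lower and 11.3% called higher. The size of the Krt14 difference depended on the pseudocount, at -4.70 with 1 and -0.87 with 100, and passed in each of 16 alternatives. Its probe set is an x set, which may cross-match related transcripts; the next brightest Krt14 probe set, of the plain type, differed by -1.18. The 3 dimmer probe sets of Trp63 differed by -1.06 to -0.55 and the other 2 of Krt8 by 0.66 and 0.85. Trp63 missed the threshold without the OFT control (-0.87, adjusted p = 0.0555) and without the OFT mutant (-0.75, 0.0727). Krt8 missed it in 11 of 16 alternatives, leaving out any 1 of the 8 arrays among them, with adjusted p of 0.0521 without either p75-sorted array and 0.4 without the OFT control.

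The other 7 genes did not pass this test. Cdh1 differed by 0.29 (95% interval -0.21 to 0.79), Epcam by -0.15 (-0.55 to 0.25), Cldn6 by 0.05 (-0.41 to 0.52) and Cldn7 by -0.02 (-0.38 to 0.34). Esrp1, Cldn3 and Grhl2 were at -0.47 (-0.80 to -0.13), -0.44 (-0.78 to -0.10) and -0.40 (-0.73 to -0.07), with adjusted p of 0.0597, 0.0799 and 0.104. These 3 intervals, which are not adjusted for the number of genes, exclude 0. Esrp1 passed in 5 of the alternatives, among them quantile normalization at 0.0346. Both OFT arrays lay below all 4 LM and UM arrays for Trp63, Krt14, Grhl2 and Esrp1, as for 17% of all genes, and above them for Krt8, as for 23.1%.

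Of 5 further keratins 2 were higher, 2 lower and Krt18 was not called. Krt19 and Krt7, keratins of simple epithelia, were higher in OFT by 0.89 ± 0.16 (adjusted p = 0.00285) and 0.63 ± 0.15 (0.0161). Krt5, the partner of Krt14, and Krt15 were lower by 0.89 ± 0.19 and 1.01 ± 0.22. In intensity, Krt19 was 93.2 and 83.8 in OFT against 49.8 and 30.4 in LM and 26.2 and 27.6 in UM, and Krt5 was 41.1 and 25.7 in OFT against 89.8 and 109 in LM and 59.8 and 99.4 in UM. Krt18, the partner of Krt8, was at 0.51 with adjusted p = 0.0735. In the junction list 4 of 17 were higher and 1 lower: Cdh3, Pard6b, a polarity protein, and Dsp were at 1.03, 0.98 and 0.76, and Pkp1, a plakophilin of desmosomes, was at -0.92. Col17a1, a collagen of the hemidesmosome, was the 1 gene called of the 8 surface, protease and traffic genes, at -1.04. Over all 38 further epithelial genes 7 were higher and 6 lower, with a median of -0.03, where 11.3% of all genes were higher and 3.88% lower.

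Markers of other epithelia and of heart muscle moved with OFT. Pharyngeal endoderm genes were higher for 4 of 6 tested and lower for 1, beside the 11.3% and 3.88% of all genes. Foxa1 and Foxa2, forkhead factors of endoderm, were at 1.94 and 1.44, Shh, a signal of pharyngeal endoderm, at 1.74 and Hhex at 1.24, while Pax9, also a gene of facial mesenchyme, was at -0.81. Foxa1 had intensities of 366 and 347 in OFT against 123 and 94.0 in LM and 31.9 and 51.2 in UM. All 6 mesothelium genes tested were higher, Upk3b, a uroplakin of mesothelium, by 3.58 ± 0.19 with intensities of 393 and 361 in OFT and 0.817 to 4.93 in LM and UM. Wt1, a transcription factor of mesothelium, was at 1.79. The endoderm list summed to 1744 and 1734 in OFT against 736.9 to 1292 in LM and UM, and the mesothelium list to 1574 and 1640 against 138.8 to 351.5. Msln, another of that list, did not pass the filter on low values. Krt8, Krt18 and Krt19 are known from simple endoderm and from mesothelium, and cardiac muscle genes were far higher in OFT, with a summed intensity of 16098 and 18088 against 45.9 to 963.7 in LM and UM. Also higher in OFT were 4 of 4 endothelial genes, 3 of 5 crest and glia genes and 2 of 5 neuron genes, with 0 lower. Of 13 mesenchyme genes 3 were higher, with Fn1 at 1.35, and 3 lower, with Prrx1 at -1.63. How much of the OFT keratin levels comes from each of these cell types was not tested.

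**Figure D3:**
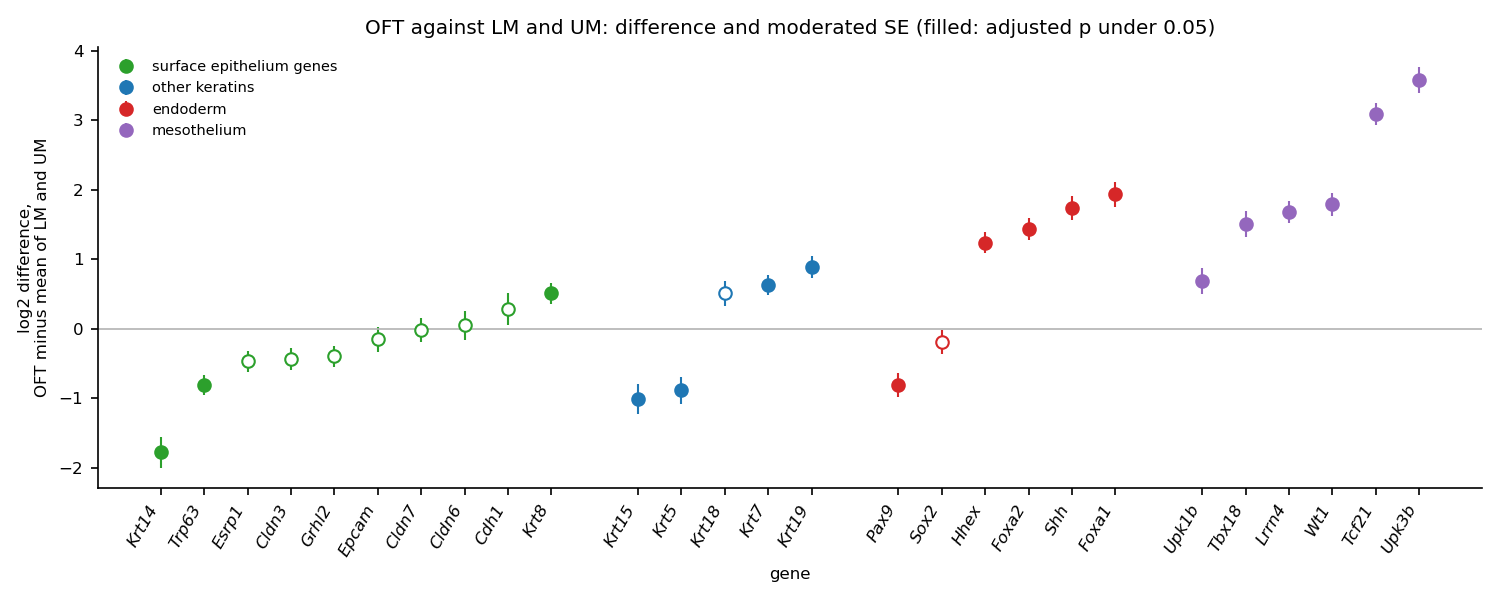
Log2 difference of OFT from the mean of LM and UM, with limma's moderated SE, for the 10 genes, 5 further keratins, 6 pharyngeal endoderm genes and 6 mesothelium genes tested; filled points passed at an adjusted p under 0.05. Of the filled points, Krt14, Trp63, Krt15, Krt5 and Pax9 lie below 0, and Krt8, Krt7, Krt19, 4 endoderm genes and 6 mesothelium genes above.

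LM was then compared with UM. Epithelial genes lay lower in LM for 9 of the 10, with a median of -0.61 against 0.00 for all genes, and 4 passed the test, where 0.819% of all genes were called lower and 0.738% higher. Epcam differed by -1.11 ± 0.21 (adjusted p = 0.0196), Cldn6 by -1.10 ± 0.25 (0.0481), Cldn3 by -0.88 ± 0.18 (0.0316) and Krt8 by -0.78 ± 0.17 (0.0454). For 8 of the 10 genes both LM arrays lay below both UM arrays, as for 18.1% of all genes. The exceptions were Trp63, whose LM arrays both lay above the UM arrays by a small margin (0.03, 95% interval -0.35 to 0.41), and Krt14 (-0.35, -0.89 to 0.20), whose arrays overlapped. The other differences were -0.62 for Esrp1, -0.60 for Cldn7, -0.56 for Cdh1 and -0.34 for Grhl2.

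These 4 calls were close to the threshold. Each was lost in 8 to 12 of 16 alternatives. Without the UM mutant 0 of the 10 passed, with adjusted p of 0.257 for Epcam, 0.31 for Cldn3, 0.338 for Cldn6 and 0.32 for Krt8. At a pseudocount of 1 and without a filter on low values 0 of 10 passed as well, and 64 and 141 of all genes were then called by limma, where 211 were called in the reported fit. Leaving out any 1 array left 0 to 2 of the 10, and 1 without both p75-sorted arrays, which take part only in the estimate of the spread. Without the LM mutant Cdh1 passed, at -1.09 with adjusted p = 0.0355, and without the LM control it was at -0.03. Of the 38 further epithelial genes 0 were called lower in LM and 1 higher, Dlx3 at 1.09 ± 0.20. Of the endoderm genes, Sox2 and Pax9 were higher in UM, by 1.65 and 1.06, and Shh and Foxa1 higher in LM, by 0.99 and 0.94. Of 5 neuron genes 3 were lower in LM, Stmn2 at -2.47, Elavl4 at -1.57 and Tubb3 at -1.26. Of 6 cardiac muscle genes 2 were higher, Actc1 at 3.12 and Tnnt2 at 1.08, as was 1 of 6 mesothelium genes, Tcf21 at 1.66. The rest of these 2 lists was not called. Myl7, Myh6, Nkx2-5 and Myh7 were at 0.00, -0.10, 0.09 and 0.24. Upk3b, Wt1, Lrrn4, Upk1b and Tbx18 were at -0.07, -0.15, 0.01, 0.40 and 0.61. The part of these genes' cell types in the epithelial differences was not tested.

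Mutant against control asks whether loss of FAK changed epithelial transcripts. By limma 0 of the 10 genes passed, and 0% of all 13545 genes did. At an unadjusted p under 0.05 there were 0 of the 10 and 3.03% of all genes. The differences, mutant minus control over 4 pairs, ran from -0.20 ± 0.18 for Krt14 to 0.16 ± 0.19 for Cdh1. Their 95% intervals, not adjusted for the number of genes, reached from -0.58 to 0.57 at the widest, and changes inside them are not excluded. The intervals are not a limit of detection. Actc1, a cardiac muscle gene outside the 10, was at 0.55 ± 0.13 and was not called either. The interval ran from -0.25 to 0.28 for Trp63, from -0.20 to 0.33 for Krt8 and from -0.32 to 0.22 for Esrp1. The 38 further epithelial genes had a median of 0.01, and 0 of them passed.

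In single origins, 0 of the 10 genes differed 2-fold between the mutant and the control array on the scale of log2(intensity + 32). On that scale, which understates differences of dim genes, 0.199% to 0.568% of all genes tested did. In plain intensity Cdh1 was more than 2-fold apart in LM, at 186.8 in the control and 391.5 in the mutant. So were Cldn6, at 69.6 and 26.2, and Krt14, at 24.2 and 4.87, in p75-sorted cells. No other pair of the 10 genes was. The differences that follow are in log2(intensity + 32). Cdh1 was 0.95 higher in the LM mutant and between -0.37 and 0.19 in the other pairs. Cldn6 was at -0.80 in p75-sorted cells and between 0.14 and 0.29 in the others. Krt14 was at 0.45 in UM, -0.02 in OFT, -0.63 in LM and -0.61 in p75-sorted cells. Trp63, Krt8 and Esrp1 stayed within 0.19 of 0 in each pair. Each of these is a difference between 2 arrays with no replicate check. The median of the 10 genes was 0.17 in UM, -0.02 in OFT, -0.08 in LM and -0.03 in p75-sorted cells, and that of all genes 0.04, -0.05, -0.04 and -0.02.

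**Figure D4:**
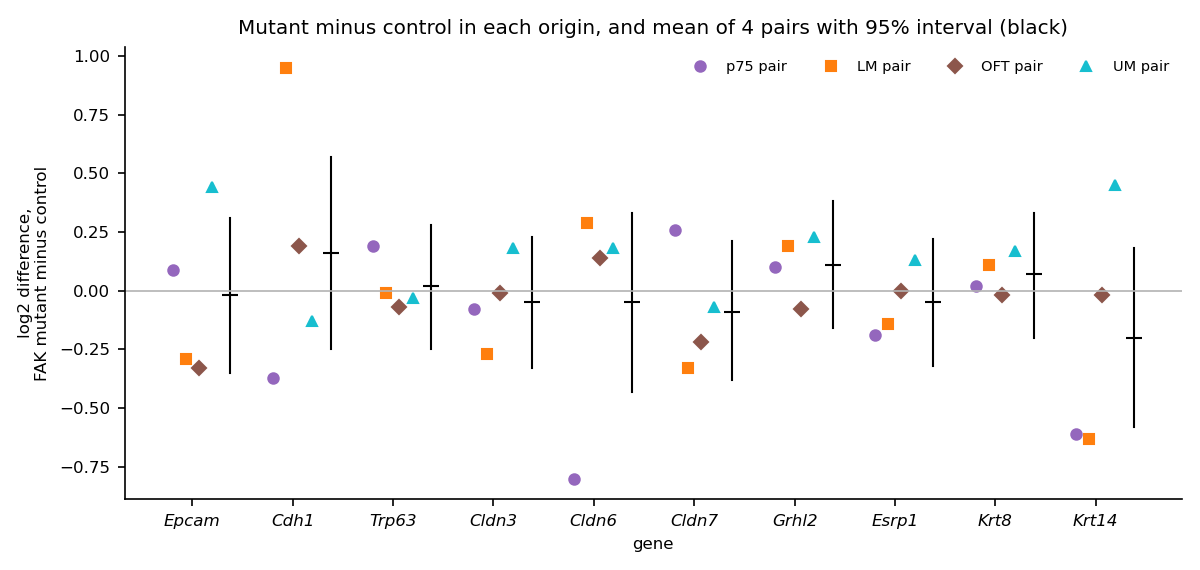
Log2 difference of FAK mutant minus control for the 10 genes, 1 symbol for each origin's pair of arrays, and in black the mean of 4 pairs with its 95% interval from limma. All 10 intervals include 0, and the widest single differences are 0.95 for Cdh1 in LM and -0.80 for Cldn6 in p75-sorted cells.

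Over the 8 arrays most of the 10 genes moved together. Of their 45 pairs the Pearson correlation of log2 values had a median of 0.80, from 0.03 to 0.97, and it is given as a description, since the arrays share origins. No such median was computed for pairs of all genes tested, so it is not shown to be particular to these 10. Krt14 stood most apart, with a median correlation of 0.50 with the other 9, followed by Cldn3 at 0.67 and Krt8 at 0.74. Esrp1 was the most typical, at 0.88. The genes most like the mean of the 10 were Mgst3 and A930006K02Rik at 0.988, Rarb at 0.98, Ppp1r11 at 0.977 and Pdhx at 0.973. The gene most like Trp63 was Kctd12b at 0.996, that most like Cdh1 was Arpc4 at 0.993, and that most like Krt14 was Dkk4 at 0.987. Dkk4 encodes a secreted Wnt inhibitor, and its intensities were 41.6 and 25.7 in LM, 38.6 and 58.1 in UM, 0.45 and 2.83 in OFT, and 6.67 and 0.911 in p75-sorted cells. Krt8 was most like Hspb8, a small heat shock protein gene, at 0.978, and Epcam most like Wnt5a at 0.973.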

How the data were processed

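RNA of 8 samples was measured on Affymetrix arrays. The authors deposited linear intensities of 45101 probe sets; the sources used here do not name the software, and the trimmed mean was 150.0 on each array, so no further scaling was applied. GEO's platform annotation gave exactly 1 gene for 34945, several for 932 (left out) and none for 9160; 64 are Affymetrix controls. Each gene was represented by its brightest probe set and tested if at least 2 of 8 arrays lay above an intensity of 19.4, the 40th percentile of all values. limma 3.58.1 in R 4.3.3 was fitted to log2(intensity + 32) over all 8 arrays, modelling origin and genotype together (residual df 3, prior df 9.06), with Benjamini-Hochberg adjustment over all 13545 genes. The origin label pairs control and mutant arrays. The fit was tested on simulated data, but the outcome is not given here and no result rests on it. Named genes were the 10 members, up to 4 called genes with the largest difference per list, and the genes most correlated with the members. The members and lists were chosen with earlier results of these data known. Alternatives were pseudocounts of 1 and 100, no filter, averaged probe sets, quantile normalization, an intensity trend, no origin or genotype term, and leaving out single arrays or pairs; leaving out the p75-sorted pair from comparisons of other origins was added after seeing the data.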

Additional observations from a re-analysis of the deposited data

Results flagged for a closer look

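Cldn6, a claudin of embryonic epithelia, differed by -0.80 (log2, mutant minus control) in the p75-sorted pair, far from the 0.14 to 0.29 of the LM, OFT and UM pairs. It was picked out by its gap to the nearest pair relative to the whole range of the 4 pairs, a criterion that chance meets for about 1 gene in 20, and 10 genes were examined. It rests on 1 control and 1 mutant array, and its cause was not tested.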

How the results depend on the processing

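Of 810 recomputed differences of the 10 genes, 704 kept their sign and side of the threshold, 69 lost a call and 6 gained one. Another 31 changed sign, 20 of them for genotype, and no value that changed sign was called as reported. The 810 are not separate checks. For genotype, leaving out either array of an origin gave the same difference as leaving out its pair. Leaving out an array of an origin outside a comparison left the difference unchanged and moved only its spread and adjusted p. Leaving out 1 array at a time, genotype differences ran from -0.176 to 0.082 for Epcam, -0.105 to 0.336 for Cdh1, -0.040 to 0.048 for Trp63, -0.122 to 0.030 for Cldn3 and -0.163 to 0.201 for Cldn6, and 0 to 1 of all genes were called for genotype. Leaving out a pair gave, for genotype, -0.040 for Trp63 and 0.201 for Cldn6 without p75-sorted cells, 0.067 for Epcam, -0.105 for Cdh1, 0.030 for Cldn3 and 1 gene called without LM, and 0.082 for Epcam without OFT. With averaged probe sets genotype was at 0.122 for Epcam and -0.005 for Trp63, and LM against UM at -0.058 for Trp63; with quantile normalization Cldn3 was at 0.005 in p75-sorted cells against OFT. In OFT against LM and UM, leaving out single arrays gave -0.356 to 0.057 for Epcam, -0.071 to 0.177 for Cldn6 and -0.102 to 0.067 for Cldn7, with 1 to 2 of the 10 genes and 624 to 2145 of all genes called. The same gave 3654 to 6287 genes called for p75-sorted cells against LM and UM, 1817 to 5035 against OFT, and for LM against UM 110 to 223 genes and 0 to 2 of the 10. A pseudocount of 1 called 2845 genes for p75-sorted cells against OFT, 999 for OFT against LM and UM, and 64 for LM against UM with 0 of the 10; one of 100 called 138 for LM against UM with 2 of the 10. Without single arrays LM against UM ran from -0.002 to 0.063 for Trp63 and -0.784 to 0.089 for Krt14. There, 0 of the 10 passed without a filter, 2 with averaged probe sets and 1 without the p75-sorted pair. The causes were not tested.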
